A study of Homo sapiens with 2 samples.

Results

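The genes of the core autophagy machinery were followed in H9 cells exposed to doxorubicin and in untreated H9 cells. The 38 members were fixed by name, and all 38 symbols were among the 19220 in the count table. They were arranged by role into 7 groups, from the kinase complex that starts the process to a tether that ends it. H9 is an established clonal human T cell lymphoma line, labelled here as T lymphocyte cells of WT genotype, and doxorubicin is a DNA-damaging anthracycline that poisons topoisomerase II. The treated group was 1 library of cells kept with 0.05 µM doxorubicin for 6 h. The other was 1 library of cells labelled as doxorubicin for 0 hour, called untreated here. Both were grown in medium with fetal bovine serum, and poly(A) RNA was sequenced. The titles of the samples carry the numbers 1 and 2, whose meaning the labels do not explain. There was no library of cells kept for 6 h without doxorubicin, so the drug and the time in culture cannot be told apart. Below, "with doxorubicin" names the treated library only. Each condition was a single library, so no value below has a replicate and no test between conditions could be made. Intervals are 95% counting intervals and cover counting error only. Overlap of 2 intervals does not show that the levels or shares are equal.

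Autophagy encloses cytoplasm in a double membrane and delivers it to the lysosome. The ULK1 kinase complex starts the process, a class III PI3-kinase complex marks the forming membrane with phosphatidylinositol 3-phosphate (PI3P), and lipid carriers enlarge it. Ubiquitin-like conjugation then attaches ATG8 proteins, the LC3 and GABARAP families, to the membrane, where cargo receptors bind them. The mRNA levels given here do not measure the flow of material through this pathway, which depends also on phosphorylation, lipidation and degradation of these proteins. In a bulk library, fewer cells with a transcript and less of it per cell cannot be told apart.

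The treated library held 50174434 counts and the untreated library 33730703, a depth ratio of 1.49. Levels are CPM, counts scaled to the TMM effective size of each library. A gene was treated as measured with at least 100 counts over both libraries, which left 11244 genes and 37 of the 38 members. The call of higher or lower took a 1.5-fold ratio or more, with a counting interval that did not include a ratio of 1. Of the 12 T cell markers 9 were measured, with 1 called higher, 0 lower and log2 ratios from -0.58 for CD3D to 1.11 for CD3G. CD3G had 3134 counts in the treated library and 931 in the untreated library, and CD3E had 8864 and 7149. CD2 had 2 counts in treated and 0 in untreated cells, CD7 had 8 and 8, and CD28 had 13 and 8, so these defining markers were at or near 0. No myeloid marker of 6 listed exceeded 10 counts in either library. Of 6 B cell markers 2 were measured, and of 7 epithelial and fibroblast markers 3. CD79A, a B cell marker, had 6628 counts in the treated and 6007 in the untreated library, and EPCAM, an epithelial marker, had 3236 and 2591. The log2 ratio was -0.32 for EPCAM, 0.45 for CDH1 and 0.24 for COL1A1, the other measured markers of that list. Sums over a list are carried by its most abundant genes, and the median log2 ratio was 0.03 over the T cell list and 0.24 over the epithelial and fibroblast list. Summed over its list, the level was 1952 CPM in treated and 2137 CPM in untreated cells for T cell markers, 150 CPM and 206 CPM for B cell markers, and 73.8 CPM and 87.4 CPM for epithelial and fibroblast markers. The part of other cell types in the results was not tested.

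Most of the autophagy genes differed little between the libraries. Of 37 measured members, 0 were called higher, 2 were called lower and 35 were neither. Across all measured genes 7.26% were called higher and 9.57% lower, 16.8% in all, and 2 of 37 members is 5.41%. Scaled by total counts, 9.64% of all genes were higher and 7.58% lower, and the members were again 0 and 2. The members called lower were MAP1LC3B and GABARAP, the ATG8 genes with the most counts in both libraries. The median log2 ratio of doxorubicin over untreated was 0.0079 for the members and 0.0066 for all measured genes. The interquartile range was -0.17 to 0.24 for the members and -0.28 to 0.27 for all measured genes. Ratios above 0 were found for 19 of 37 members, 51.4%, and for 50.7% of all measured genes. At a smaller limit of 0.32 on the log2 scale, 8 members or 21.6% were higher and 6 or 16.2% were lower, against 20.4% and 21.5% of all measured genes. Together the 38 members took 2455 CPM in treated and 2658 CPM in untreated cells. The 5 ATG8 genes took 397 CPM of this in treated and 623 CPM in untreated cells, and the other 33 members 2058 CPM and 2035 CPM. Without the ATG8 genes the sum was thus slightly higher with doxorubicin.

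**Figure D1:**
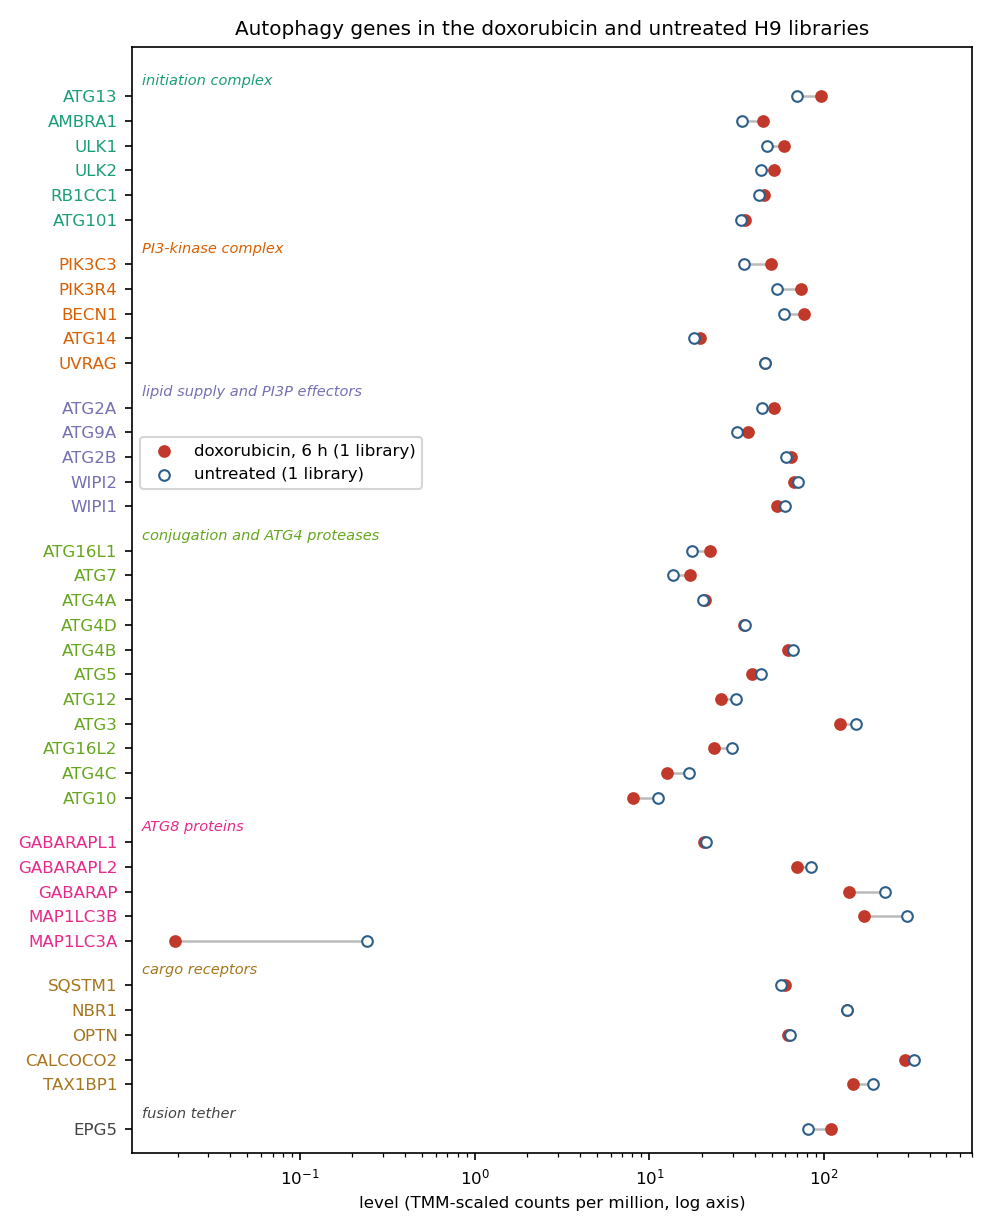
Level of each of the 38 genes in the doxorubicin library (filled circles) and the untreated library (open circles), in TMM-scaled CPM on a log axis, grouped by role. Most pairs lie close together. MAP1LC3B, at 169 CPM with doxorubicin and 296 CPM untreated, and GABARAP, at 138 and 222 CPM, stand apart among the abundant genes, and MAP1LC3A is near 0 in both.

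**Figure D2:**
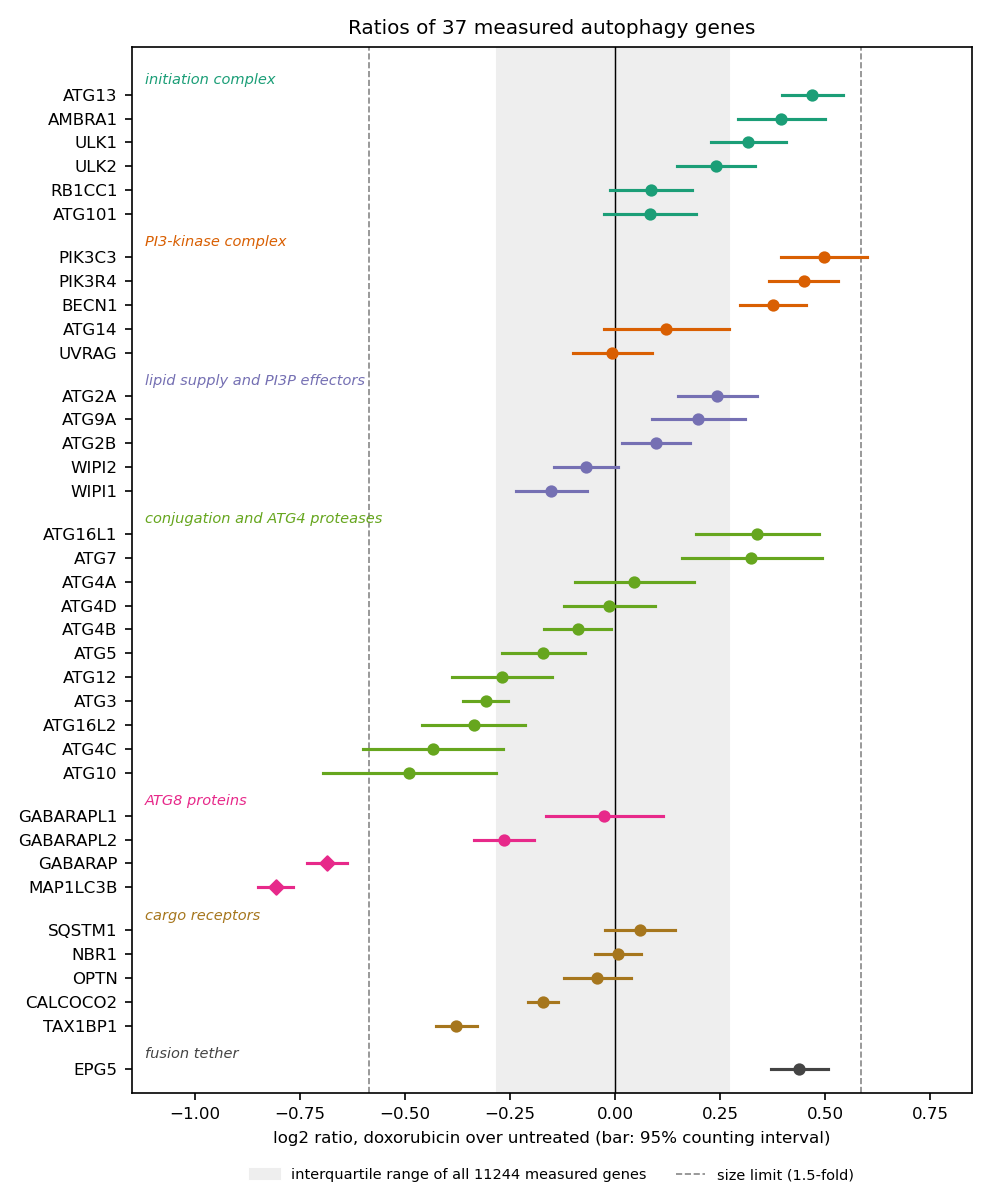
The log2 ratio of doxorubicin over untreated for the 37 measured genes, with bars for the 95% counting interval. Grey shading is the interquartile range of all 11244 measured genes and dashed lines are the 1.5-fold limit. The diamonds, MAP1LC3B and GABARAP, are the genes past that limit, while PIK3C3 at 0.50 is the highest.

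The promoter windows of the members at either end of this range are shown, since they are the sequences from which the transcripts with the lowest and highest ratios start. They are RefSeq windows of 300 bases on GRCh38.p14 that span the annotated start, most of each window lying before it. The submitters' processing notes name hg19 for the counts, so these coordinates do not belong to the count table. MAP1LC3B and GABARAP had the lowest ratios, and PIK3C3 and ATG13 the highest. Capitals mark letters that match CACGTG (an E-box, the core of the site of TFEB and TFE3), TGACGTCA (the cAMP response element), GGGCGG (the GC box) or TGACNNNGC (the antioxidant response element core) on either strand. No matches overlapped in these 4 windows.
MAP1LC3B, chr16:87392086-87392385, plus strand: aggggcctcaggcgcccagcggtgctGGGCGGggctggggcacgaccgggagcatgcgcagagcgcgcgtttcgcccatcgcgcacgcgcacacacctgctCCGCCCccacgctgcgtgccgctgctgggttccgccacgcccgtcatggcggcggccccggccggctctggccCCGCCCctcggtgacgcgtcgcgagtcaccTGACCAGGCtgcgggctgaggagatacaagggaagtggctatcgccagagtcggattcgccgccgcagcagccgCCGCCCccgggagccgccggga
GABARAP, chr17:7242400-7242699, minus strand: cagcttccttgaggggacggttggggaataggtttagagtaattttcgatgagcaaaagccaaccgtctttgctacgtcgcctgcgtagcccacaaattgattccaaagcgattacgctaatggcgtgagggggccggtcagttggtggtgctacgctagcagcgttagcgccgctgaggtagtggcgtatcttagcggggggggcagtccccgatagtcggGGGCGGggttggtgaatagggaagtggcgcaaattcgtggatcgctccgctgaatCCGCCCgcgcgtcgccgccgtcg
PIK3C3, chr18:41954984-41955283, plus strand: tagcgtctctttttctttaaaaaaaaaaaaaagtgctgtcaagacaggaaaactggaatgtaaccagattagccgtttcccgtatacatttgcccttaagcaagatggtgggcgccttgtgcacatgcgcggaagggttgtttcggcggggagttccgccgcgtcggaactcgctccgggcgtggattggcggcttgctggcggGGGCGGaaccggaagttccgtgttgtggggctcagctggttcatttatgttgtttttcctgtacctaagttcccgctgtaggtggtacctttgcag
ATG13, chr11:46617303-46617602, plus strand: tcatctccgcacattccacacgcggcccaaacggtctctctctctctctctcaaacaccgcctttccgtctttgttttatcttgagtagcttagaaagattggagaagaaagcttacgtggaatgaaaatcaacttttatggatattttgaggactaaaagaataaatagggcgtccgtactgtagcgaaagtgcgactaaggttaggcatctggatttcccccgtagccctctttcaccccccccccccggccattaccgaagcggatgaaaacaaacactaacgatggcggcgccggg
The MAP1LC3B window had 4 matches to GGGCGG and 1 to TGACNNNGC, and the GABARAP window 2 to GGGCGG. The PIK3C3 window had 1 to GGGCGG and the ATG13 window none of the 4 motifs. MAP1LC3B had 75.7% G and C bases in its window, GABARAP 59.3%, PIK3C3 52.3% and ATG13 49.0%. Over the 33 members whose window was searched, CACGTG was found in 2 (6.06%), ATG3 and ATG14, against 7.44% of 27326 windows of all genes. GGGCGG was found in 22 (66.7%) against 44.6%, TGACNNNGC in 3 (9.09%) against 13.6%, and TGACGTCA in 1 (3.03%), GABARAPL1, against 1.98%. The median G and C content was 64.7% for the members and 58.3% for all windows. The 27326 windows were not limited to genes of the count table or to measured genes. Whether these shares and contents are particular to autophagy genes was not tested. A match of letters is a description and not a binding site. ATG4D, EPG5, MAP1LC3A, RB1CC1 and UVRAG were not searched.

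The initiation complex consists of the kinase ULK1 or its relative ULK2, the scaffold RB1CC1 (FIP200), ATG13 and ATG101, and AMBRA1 links it to the PI3-kinase complex. None of its 6 genes was called, all 6 ratios were above 0, and their median log2 ratio was 0.28. ATG13, which joins the kinase to RB1CC1, had 4942 counts (96.2 CPM) in treated and 2288 counts (69.4 CPM) in untreated cells, a log2 ratio of 0.47 (0.40 to 0.54). AMBRA1 had 2295 counts (44.7 CPM) in treated and 1119 counts (34.0 CPM) in untreated cells, a log2 ratio of 0.40 (0.29 to 0.50). ULK1 had 3006 counts (58.5 CPM) in treated and 1547 counts (47.0 CPM) in untreated cells, at 0.32 (0.23 to 0.41), and ULK2 2643 counts (51.5 CPM) in treated and 1435 counts (43.6 CPM) in untreated cells, at 0.24 (0.15 to 0.33). The intervals of these 4 excluded equal levels but stayed inside the 1.5-fold limit. RB1CC1, with 2311 counts (45.0 CPM) in treated and 1397 counts (42.4 CPM) in untreated cells, and ATG101, the gene with the most counts per kilobase in the group, with 1812 counts (35.3 CPM) in treated and 1097 counts (33.3 CPM) in untreated cells, had intervals that included 0 with TMM scaling, at 0.09 (-0.01 to 0.18) and 0.08 (-0.03 to 0.19). Under total-count scaling RB1CC1 and ATG101 were both at 0.15. The mix of kinases was nearly the same in both libraries. ULK1 made up 53.2% (51.9 to 54.5) of the counts of ULK1 and ULK2 in treated cells and 51.9% (50.1 to 53.7) in untreated cells, and these intervals overlap.

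The PI3-kinase complex holds the lipid kinase PIK3C3 (VPS34), its regulatory subunit PIK3R4 (VPS15) and BECN1 (Beclin 1), with either ATG14 in autophagy or UVRAG in endosomal traffic. None of the 5 genes was called, and the median of 0.38 was the highest of the groups with more than 1 gene. PIK3C3 had the highest ratio of all members, with 2533 counts (49.3 CPM) in treated and 1151 counts (34.9 CPM) in untreated cells, a 1.41-fold difference (1.32 to 1.51). PIK3R4 followed with 3758 counts (73.2 CPM) in treated and 1765 counts (53.6 CPM) in untreated cells, a log2 ratio of 0.45 (0.37 to 0.53). BECN1, with the most counts per kilobase here, had 3926 counts (76.4 CPM) in treated and 1941 counts (58.9 CPM) in untreated cells, at 0.38 (0.30 to 0.45), with 23.5% of its exons overlapped by CNTD1, which had 63 counts in treated and 44 in untreated cells. The shared subunits thus had ratios above 0, and with TMM scaling the intervals of the exclusive partners included 0. ATG14 was at 0.12 (-0.03 to 0.27), with 999 counts (19.4 CPM) in treated and 589 counts (17.9 CPM) in untreated cells, and at 0.19 under total-count scaling. UVRAG was at -0.0073 (-0.10 to 0.09), with 2346 counts (45.7 CPM) in treated and 1512 counts (45.9 CPM) in untreated cells, and at 0.061 under total-count scaling. ATG14 made up 29.9% (28.3 to 31.4) of the counts of ATG14 and UVRAG in treated and 28.0% (26.1 to 30.0) in untreated cells, with overlapping intervals.

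Lipid supply to the growing membrane depends on the transfer proteins ATG2A and ATG2B and on the scramblase ATG9A, and WIPI1 and WIPI2 bind PI3P there. None of these 5 genes was called, with ratios on both sides of 0 and a median of 0.10. ATG2A had 2664 counts (51.9 CPM) in treated and 1443 counts (43.8 CPM) in untreated cells, a log2 ratio of 0.24 (0.15 to 0.34), and ATG9A had 1873 counts (36.5 CPM) in treated and 1047 counts (31.8 CPM) in untreated cells, at 0.20 (0.09 to 0.31). WIPI2, which recruits ATG16L1, had 3454 counts (67.2 CPM) in treated and 2323 counts (70.5 CPM) in untreated cells, at -0.07 (-0.14 to 0.01). WIPI1, with the most counts per kilobase here, had 2770 counts (53.9 CPM) in treated and 1973 counts (59.9 CPM) in untreated cells, at -0.15 (-0.24 to -0.07), with 28.5% of its exons overlapped by ARSG, itself at 0.02 (-0.14 to 0.17). ATG2B lay between them at 0.10 (0.02 to 0.18), with 3298 counts (64.2 CPM) in treated and 1978 counts (60.0 CPM) in untreated cells. The group therefore held small differences in both directions. The share of ATG2A among ATG2A and ATG2B counts was 44.7% (43.4 to 46.0) in treated and 42.2% (40.5 to 43.9) in untreated cells. WIPI1 made up 44.5% (43.3 to 45.8) in treated and 45.9% (44.4 to 47.4) in untreated cells of the WIPI1 and WIPI2 counts. The intervals overlapped in both cases. Per kilobase of transcript, ATG2A made up 63.5% in treated and 61.1% in untreated cells, and WIPI1 66.2% and 67.5%.

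Conjugation uses ATG7 as the activating enzyme, ATG3 and ATG10 as conjugating enzymes, the ATG12 and ATG5 conjugate with ATG16L1 as the ligase, and ATG4 proteases to trim and release ATG8 proteins. None of the 11 genes in this group was called, 3 ratios were above 0 and the median was -0.17. ATG16L1 had 1137 counts (22.1 CPM) in treated and 577 counts (17.5 CPM) in untreated cells, at 0.34 (0.19 to 0.48). ATG7 had 877 counts (17.1 CPM) in treated and 449 counts (13.6 CPM) in untreated cells, at 0.32 (0.16 to 0.49). VGLL4, which overlaps 32.2% of the ATG7 exons, had 1493 counts in treated and 606 in untreated cells, at 0.66 (0.52 to 0.80). ATG16L1 and ATG7 had the highest ratios of the group. ATG10, which conjugates ATG12 to ATG5, had the lowest, with 412 counts (8.02 CPM) in treated and 371 counts (11.3 CPM) in untreated cells, a log2 ratio of -0.49 (-0.70 to -0.28). ATG4C, a protease, had 644 counts (12.5 CPM) in treated and 558 counts (16.9 CPM) in untreated cells, at -0.43 (-0.60 to -0.27). Their intervals reached beyond the 1.5-fold limit, so a difference of that size was within counting error for these less abundant transcripts. ATG3, the conjugating enzyme for ATG8 proteins and the gene with the most counts per kilobase in the group, had 6336 counts (123 CPM) in treated and 5030 counts (153 CPM) in untreated cells, at -0.31 (-0.36 to -0.25). The other 6 genes lay between -0.34 for ATG16L2 and 0.05 for ATG4A, with ATG12 at -0.27, ATG5 at -0.17, ATG4B at -0.09 and ATG4D at -0.01. ATG4D was at 0.05 under total-count scaling. Exons of FCHSD2 overlap 20.6% of ATG16L2, and those of KRI1 overlap 17.5% of ATG4D. FCHSD2 had 5388 counts in treated and 3352 in untreated cells, against 1210 and 980 for ATG16L2. KRI1 had 5083 counts in treated and 3340 in untreated cells, against 1784 and 1155 for ATG4D.

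ATG16L1 and its relative ATG16L2 differed in opposite directions. ATG16L1, the better known in autophagy, made up 48.4% (46.4 to 50.5) of their joint counts in treated cells and 37.1% (34.7 to 39.5) in untreated cells. This share does not depend on how the libraries are scaled to each other, and its intervals do not overlap. Their transcripts differ in length, at 3405 bases for ATG16L1 and 2243 bases for ATG16L2. With length and GC content taken into account their log2 ratios were 0.15 and -0.25. Per kilobase of transcript, ATG16L1 made up 38.2% in treated and 27.9% in untreated cells. FCHSD2, which overlaps exons of ATG16L2, had more counts than ATG16L2 in both libraries, and its part in this share was not tested. Among the 4 ATG4 proteases, ATG4B, which acts on most ATG8 proteins, made up 47.6% (46.4 to 48.8) of the counts in treated and 47.7% (46.2 to 49.2) in untreated cells. ATG4C made up 9.63% (8.94 to 10.4) in treated and 12.3% (11.3 to 13.2) in untreated cells, and the intervals of ATG4A and ATG4D overlapped between libraries.

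The ATG8 genes held both calls. MAP1LC3B, which encodes the LC3B used as a marker of autophagosomes, had 8687 counts or 169 CPM in treated cells and 9754 counts or 296 CPM in untreated cells. It was 1.75-fold lower (1.70 to 1.80) with doxorubicin, at a log2 ratio of -0.81, and 4.06% of all measured genes had lower ratios. GABARAP, the founding member of the other branch of the family, had 7088 counts or 138 CPM in treated and 7312 counts or 222 CPM in untreated cells. It was 1.61-fold lower (1.56 to 1.66), at a log2 ratio of -0.69. The deeper treated library thus held fewer reads of either gene than the untreated library. Their relatives lay nearer to 0. GABARAPL2 had 3579 counts (69.7 CPM) in treated and 2758 counts (83.7 CPM) in untreated cells, at -0.26 (-0.34 to -0.19), and GABARAPL1 had 1060 counts (20.6 CPM) in treated and 692 counts (21.0 CPM) in untreated cells, at -0.03 (-0.17 to 0.11). GABARAPL1 was at 0.04 under total-count scaling, of the opposite sign. MAP1LC3A, which encodes LC3A, had 1 count in treated and 8 counts in untreated cells, 0.0195 CPM and 0.243 CPM. It was below the count minimum, at a log2 ratio of -3.14 with an interval from -9.11 to -0.74.

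The make-up of the ATG8 counts differed between the libraries. These shares of counts are not corrected for transcript length. MAP1LC3B made up 42.6% (41.9 to 43.2) of ATG8 counts in treated and 47.5% (46.8 to 48.2) in untreated cells. GABARAPL2 made up 17.5% (17.0 to 18.1) in treated and 13.4% (13.0 to 13.9) in untreated cells, and GABARAPL1 5.19% (4.89 to 5.51) and 3.37% (3.13 to 3.63). GABARAP stayed close, at 34.7% (34.1 to 35.4) in treated and 35.6% (35.0 to 36.3) in untreated cells, with overlapping intervals. Per kilobase of transcript, MAP1LC3B made up 27.7% in treated and 32.3% in untreated cells, and GABARAP 37.1% and 39.9%. On that scale GABARAPL2 made up 30.6% in treated and 24.5% in untreated cells, and GABARAPL1 4.64% and 3.15%. Of the 50-base stretches sampled from MAP1LC3B, 9.43% also occur at other loci, among them MAP1LC3B2, a copy of nearly the same sequence. MAP1LC3B2 had 95 counts in treated and 109 counts in untreated cells, at -0.84 (-1.25 to -0.43), and 40.0% of its stretches are shared, so its reads cannot be told apart with certainty.

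**Figure D3:**
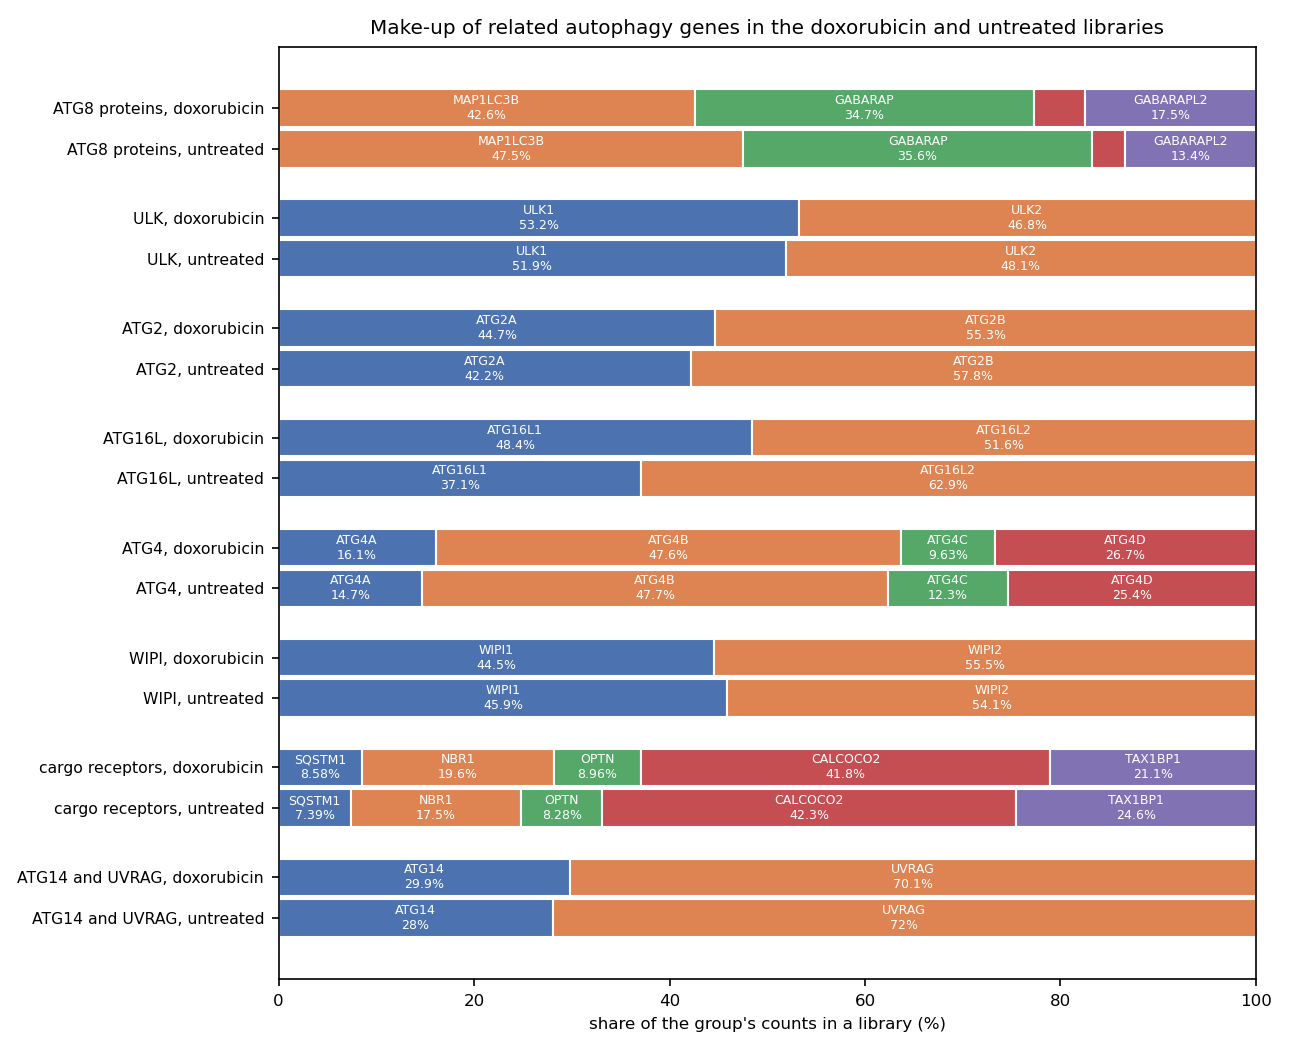
Share of each gene in the summed counts of 8 groups of related autophagy genes, with the doxorubicin library above the untreated library in each pair. Each full bar is 100% of the counts of that group, and the unlabelled red segment in the ATG8 bars is GABARAPL1, at 5.19% with doxorubicin and 3.37% untreated. MAP1LC3A is too small to be seen, and the counts are not corrected for transcript length. ATG16L1 takes 48.4% with doxorubicin, against 37.1% untreated, while the ULK and WIPI pairs are nearly alike.

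Cargo receptors carry ubiquitin-marked or damaged material to ATG8 proteins. None of the 5 was called, and their median was -0.04. SQSTM1, which encodes p62 and is itself degraded by autophagy, had 3044 counts (59.3 CPM) in treated and 1874 counts (56.9 CPM) in untreated cells, at 0.06 (-0.02 to 0.14). It has 39.8% of its exons overlapped by MRNIP, which had 163 counts in treated and 162 in untreated cells. The part of overlapping genes in the counts of members was not tested. NBR1, a relative of p62, had 6936 counts (135 CPM) in treated and 4424 counts (134 CPM) in untreated cells, at 0.0079 (-0.05 to 0.06). The intervals of both included 0 with TMM scaling, and under total-count scaling SQSTM1 was at 0.13 and NBR1 at 0.076. OPTN, a receptor for damaged mitochondria and bacteria, had 3178 counts (61.9 CPM) in treated and 2098 counts (63.7 CPM) in untreated cells, at -0.04 (-0.12 to 0.04), and at 0.026 under total-count scaling. CALCOCO2, which encodes NDP52, a receptor for bacteria and mitochondria, had the most counts of all members, with 14840 counts (289 CPM) in treated and 10721 counts (325 CPM) in untreated cells, at -0.17 (-0.21 to -0.14). TAX1BP1, a receptor related to NDP52, had 7477 counts (146 CPM) in treated and 6233 counts (189 CPM) in untreated cells, at -0.38 (-0.43 to -0.33), the lowest of the receptors. Its share of the receptor counts was 21.1% (20.7 to 21.5) in treated and 24.6% (24.1 to 25.1) in untreated cells, and that of SQSTM1 was 8.58% (8.29 to 8.88) and 7.39% (7.07 to 7.72). EPG5, which tethers autophagosomes to late endosomes and lysosomes, had 5633 counts (110 CPM) in treated and 2665 counts (80.9 CPM) in untreated cells, a log2 ratio of 0.44 (0.37 to 0.51).

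The order of the levels was nearly the same in the libraries when levels were taken as CPM per kilobase of transcript. On this scale the treated library had GABARAP at 84.4, CALCOCO2 at 78.5, GABARAPL2 at 69.5 and MAP1LC3B at 62.9. In the untreated library GABARAP was at 136, MAP1LC3B at 110, CALCOCO2 at 88.4 and GABARAPL2 at 83.5. MAP1LC3B thus stood below CALCOCO2 and GABARAPL2 with doxorubicin and above both in untreated cells. The lowest measured levels in the treated library were those of ATG10 at 2.64, ATG7 at 3.44 and ATG14 at 4.10, against 3.71, 2.75 and 3.77 in the untreated library. Of the 37 neighbouring pairs in the treated order, 19 had overlapping counting intervals. Spearman's rho between the levels in the libraries was 0.98 over the 37 measured members, which share the same transcript lengths.

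Longer transcripts tended to have higher ratios, over the whole table and, on some measures of length, among the members. Spearman's rho between ratio and transcript length was 0.61 over the 37 members and 0.55 over the 11191 measured genes with a length, and with coding length it was 0.65 and 0.52. Taking instead the median over each gene's annotated transcripts, it was 0.16 over the members and 0.35 over all genes, and with the length of the 3' untranslated region 0.15 and 0.35. All these points come from the same pair of libraries. With all genes split into 5 classes of length of nearly equal size, the 6 members in the longest class, at 5521 bases or more, had a median log2 ratio of 0.24, and all genes of that class 0.28. The 4 members in the shortest class, at 1877 bases or less, had a median of -0.21, and all genes of that class -0.40. Between them, from shorter to longer, the members' medians were -0.02, -0.17 and 0.22, and those of all genes -0.11, 0.03 and 0.14. The middle class, with 11 members the fullest, thus lay below its shorter neighbour among the members and not among all genes. The groups with the highest medians had long transcripts, with a median of 5188.5 bases for the initiation complex and 4742 for the PI3-kinase complex. The 4 measured ATG8 transcripts had a median of 1795.5 bases. What sets this relation was not tested, and its part in the differences between groups was not tested.

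**Figure D4:**
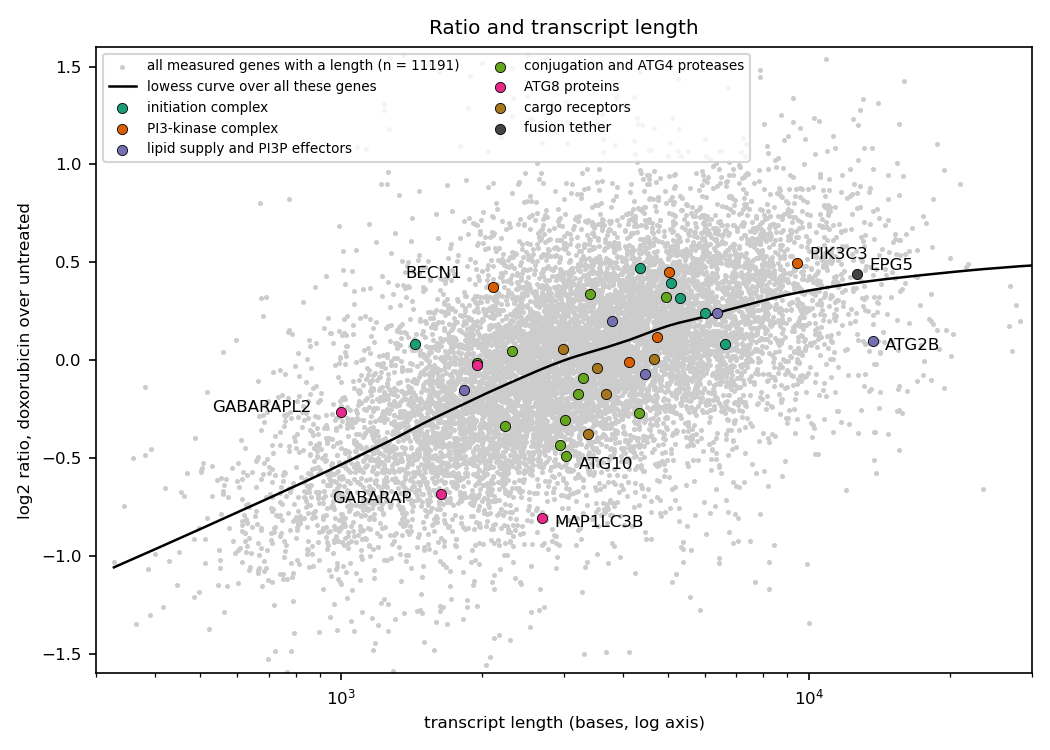
The log2 ratio of doxorubicin over untreated against transcript length in bases on a log axis, for 11191 measured genes (grey) and the 37 measured autophagy genes (coloured by role). The black line is a lowess curve over all genes, and a few grey points lie outside the axes or behind the legend. MAP1LC3B at 2688 bases lies far below the curve, while GABARAPL2 at 1002 bases and BECN1 at 2112 bases lie above it.

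Adjustment for length changed the picture by group. With transcript length, coding length and GC content taken into account, 0 members were called higher and 1 lower, against 3.99% and 3.82% of all genes. The gene still called was MAP1LC3B, at -0.59, and 3.73% of all genes had lower adjusted values. GABARAP was at -0.30 and no longer past the limit. GABARAPL2 and GABARAPL1 were at 0.34 and 0.30, so the ATG8 genes lay on both sides of 0. With coding length and GC content alone, 0 members were higher and 0 lower, against 4.83% and 4.42% of all genes, with MAP1LC3B at -0.44. With transcript length alone, 0 were higher and 1 lower, MAP1LC3B at -0.77, against 4.72% and 4.87%. With the median length of each gene's transcripts, ATG13 was called higher at 0.60 and MAP1LC3B lower at -0.74, against 6.08% and 7.62%. In that setting GABARAPL2 was at -0.14, GABARAPL1 at 0.08 and GABARAP at -0.54. A 2-fold limit left 0 members in either direction, against 1.14% and 1.56%, and no count minimum gave 0 higher and 3 lower, against 7.37% and 9.84%. In the initiation complex the adjusted median was 0.09, with ATG101 at 0.40 and ATG13 at 0.22 but RB1CC1 at -0.14 and ULK2 at -0.11. The adjusted median of the PI3-kinase complex was 0.17, with BECN1 at 0.41, PIK3C3 at 0.26 and PIK3R4 at 0.17 but ATG14 at -0.06 and UVRAG at -0.23. In the conjugation group the adjusted median was -0.016, against -0.17 without adjustment, and 5 of 11 genes were above 0, with ATG12 and ATG4D of the opposite sign to their unadjusted ratios. With coding length and GC content alone that median was 0.015. All 5 cargo receptors were below 0, with a median of -0.24, and NBR1 at -0.24 and SQSTM1 at -0.04 were of the opposite sign to their unadjusted ratios. With coding length and GC content alone SQSTM1 was at 0.0089. EPG5, with a transcript of 12698 bases, was at -0.13, of the opposite sign. With transcript length alone EPG5 was at 0.03, the sign of its unadjusted ratio. It was at -0.13 with coding length and GC content, and at -0.07 with the median length. In the lipid supply group all 5 genes were below 0 with transcript length, coding length and GC content together. ATG2B was lowest at -0.38 and ATG9A highest at -0.01. ATG2A, ATG2B and ATG9A were of the opposite sign to their unadjusted ratios. With transcript length alone 2 of the 5 were above 0, with coding length and GC content 1, and with the median length 2.

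Other genes of the pathway were called higher at about the share of all measured genes, and were called lower less often. Over 6 further lists, 72 genes were measured, of which 6 (8.33%) were higher, 2 (2.78%) lower and 64 neither, with a median of 0.04, against the 7.26% higher and 9.57% lower among all measured genes. The upstream nutrient kinases were 2 higher and 1 lower of 13. PRKAB2, a subunit of the energy sensor AMPK, had 611 counts in treated and 237 in untreated cells and was 1.65-fold higher (1.42 to 1.93). MTOR, the kinase that restrains ULK1, had 7639 counts in treated and 3254 in untreated cells and was 1.51-fold higher (1.45 to 1.57), just past the limit. After adjustment for length and GC content, MTOR was at a log2 ratio of 0.0041 and PRKAB2 at 0.68. RHEB, the GTPase that activates MTOR, had 4487 counts in treated and 4563 in untreated cells and was 1.59-fold lower (1.52 to 1.65), with 17.1% of its stretches shared with other genes and an adjusted log2 ratio of -0.46, no longer past the limit.

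Among 10 transcription regulators 1 was higher and 0 were lower, against 7.26% and 9.57% of all measured genes. TFEB and TFE3, which activate autophagy and lysosomal genes, were at 0.03 (-0.13 to 0.19) and 0.0052 (-0.09 to 0.10). TFEB had 848 counts in treated and 532 in untreated cells, and TFE3 had 2526 and 1614. The third factor of that family, MITF, had 254 counts in treated and 99 in untreated cells and was 1.64-fold higher (1.30 to 2.10). Of 13 further machinery genes 2 were higher, FYCO1 at 1.58-fold (1.48 to 1.68), an adaptor for autophagosome transport with 3365 counts in treated and 1369 in untreated cells, and the lipid transfer protein VPS13A at 1.53-fold (1.43 to 1.65), with 2547 and 1065 counts. Adjusted for length and GC content, FYCO1 was at 0.16 and VPS13A at 0.23. MAP1LC3B2 was the 1 that was lower, and with the same adjustment it was at -0.23, no longer past the limit. Over all 6 lists 2 of 72 genes, PRKAB2 and MITF, were higher and 0 lower after that adjustment. Among all genes it left 3.99% higher and 3.82% lower.

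Among genes of fusion with the lysosome, 1 of 14 was higher and 0 were lower, against 7.26% and 9.57% of all measured genes. Their median was 0.22. VPS39, of the HOPS tether, had 3455 counts in treated and 1459 in untreated cells and was 1.52-fold higher (1.43 to 1.62), at an adjusted 0.28. None of 16 measured receptors on organelles and none of 7 measured p53 targets tied to autophagy was called. The receptors with the most counts were PHB2, a receptor of the inner mitochondrial membrane, with 19919 counts in treated and 12652 in untreated cells, at 0.01 (-0.02 to 0.05), and NCOA4, the receptor for ferritin, with 17225 and 9822, at 0.17 (0.13 to 0.20). SESN2, a p53 target that restrains MTOR, had 9157 counts in treated and 3930 in untreated cells, a ratio of 1.49 (1.44 to 1.55) that fell just short of the limit. BNIP3, a mitochondrial receptor and the p53 list member with the next most counts, had 2179 counts in treated and 1471 in untreated cells, at -0.07 (-0.17 to 0.02).

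**Figure D5:**
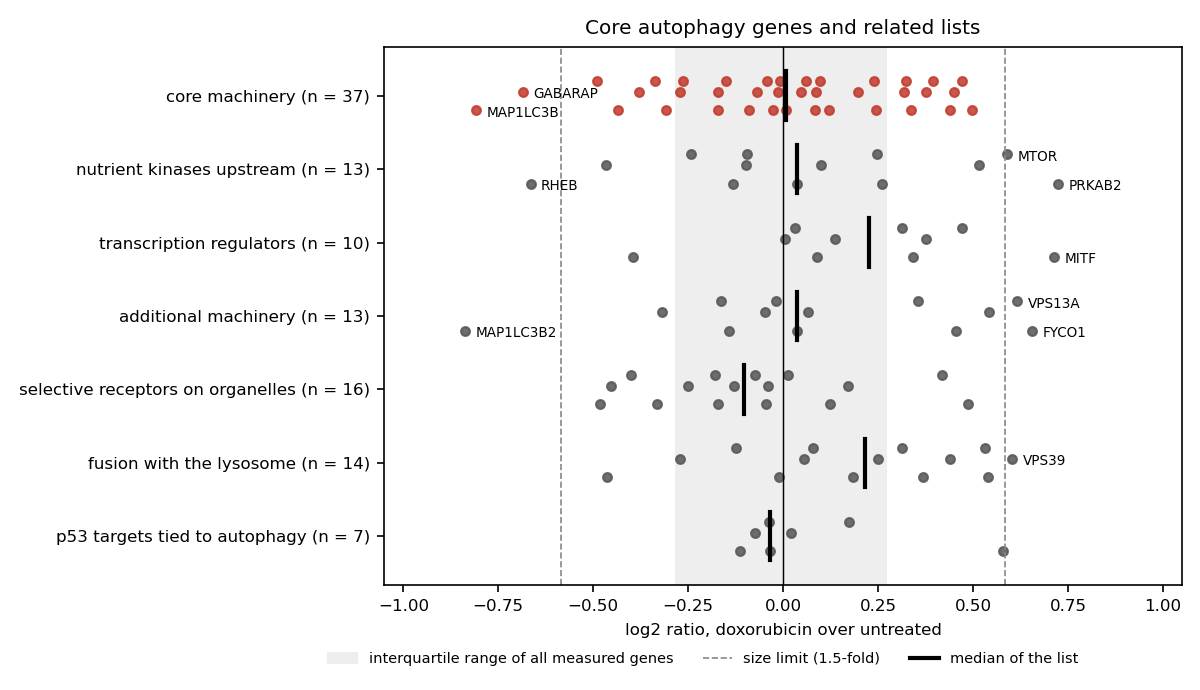
The log2 ratio of doxorubicin over untreated for the 37 measured core genes and for 6 lists of related genes, with 1 point per gene, a bar at each median, grey shading for the interquartile range of all measured genes and dashed lines at 1.5-fold. Genes past the limit with an interval excluding 1 are named. The core genes have a median of 0.0079, and 0 of them lie beyond the upper line.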

How the data were processed

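The authors deposited unscaled whole-number counts of reads per gene for 1 doxorubicin library and 1 untreated library. The submitters' processing notes name HISAT2, featureCounts and hg19, and the versions, annotation, strand setting and handling of multiply aligned reads are not stated there. These affect genes that overlap others or have near copies. Genes with at least 10% of exons overlapped by another protein-coding gene, which holds for 6 members, are marked where described in detail.

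Counts were scaled by TMM (edgeR 4.0.16, R 4.3.3), and 0.5 was added before log2 ratios. Exact Clopper-Pearson intervals at 95% were taken on the counts of reads and cover counting error only. PCR copies cannot be told from separate molecules here, so the intervals may be too narrow even for counting error. With 1 library per condition there is no test and no p-value. The members and lists were chosen with earlier results of these data known. All members were described, and from each further list up to 2 highest and 2 lowest called genes, or the 2 with most counts where none was called, with MTOR, TFEB and TFE3. Lengths and GC content came from GENCODE release 29, on another build, for 11191 measured genes (99.5%). For each gene the longest coding transcript with a RefSeq match was taken, or the longest coding transcript where none matched. It need not be the main transcript in H9 cells, which was not tested. Levels per kilobase and the adjustments, other than that for median length, rest on this choice. Adjusted ratios are residuals of regression splines or a lowess curve (span 0.3) plus the mean ratio. Alternatives were DESeq2 1.42.0 size factors, total counts, other minimums, limits and intervals, and length adjustments. The code was tested on simulated data.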

Additional observations from a re-analysis of the deposited data

How the results depend on the processing

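The median log2 ratio of the members lay between -0.06 and 0.08 under the alternatives run, and 0 members were called higher and 2 lower with DESeq2 size factors, total-count scaling, count minimums of 20 and 500, an added count of 5 and a stricter counting interval. Over all genes, the shares called higher and lower were 7.3% and 9.53% with DESeq2 size factors, and 9.64% and 7.58% with total counts. They were 8.02% and 10.3% at a minimum of 20, and 6.49% and 8.6% at 500. An added count of 5 gave 6.94% and 9.59%, and the stricter interval 6.87% and 9.22%. Without a count minimum 3 members were lower, the third being MAP1LC3A, against 9.84% of all genes. A limit of 0.32 on the log2 scale gave 8 higher and 6 lower, against 20.4% and 21.5% of all genes. One of 2-fold gave 0 lower, against 1.56%. Adjustment for transcript length gave 1 lower, against 4.87%, and with coding length and GC content also 1, against 3.82%. Among adjustments added after seeing the data, coding length with GC content gave 0 lower, against 4.42%. The median length of a gene's transcripts gave 1 higher, ATG13, and 1 lower, MAP1LC3B, against 6.08% and 7.62%. The sign of the ratio was opposite for 4 of 37 members under total-count scaling and for 9 to 13 under the length adjustments, and the cause was not tested. Higher genes made up 43.1% of calls over all genes, and 56.0% when libraries were scaled by total counts. No paired analysis was possible because each condition has 1 library, and none could be left out. The count of 1 limits what can be said of MAP1LC3A.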
